A study of Mus musculus with 4 samples.

Results

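The 3 Myc genes (Myc, Mycn and Mycl) and 5 genes of nucleolar proteins (Ncl, Npm1, Fbl, Nop56 and Nop58) were described across 4 single-cell libraries of mouse embryonic stem cells (mESC). They were chosen by name and make up 8 of the 32285 genes in the matrix, where each symbol was found. The cells are E14tg2a.4, a male mESC line, as wild type (WT) or as Srrm2 hKO, a gene-trap line derived from it with a heterozygous truncation of Srrm2, which encodes a large splicing factor. All cells received LIF, which holds mESC in self-renewal, and were collected from serum-free medium. The labels and the study's methods differ on the length of that growth. Srrm2 hKO was a single gene-trap clone, so its properties and those of the truncation cannot be told apart in these data. The labels list 2 samples of each genotype from independent experiments, but cells in the matrix carry a library number from 1 to 4 and nothing ties a number to a genotype. Libraries are therefore given by number, Srrm2 hKO was not compared with WT, and each difference between libraries is a difference between single cultures with no replicate error.

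Myc, Mycn and Mycl are related transcription factors that pair with Max and bind E-box sequences near genes of growth and ribosome production. Ribosomes are assembled in the nucleolus. There, nucleolin (Ncl) binds ribosomal DNA and nascent ribosomal RNA, nucleophosmin (Npm1) forms the outer granular layer, and fibrillarin (Fbl), Nop56 and Nop58 are core proteins of the box C/D particles that methylate ribosomal RNA under the guidance of small nucleolar RNAs (snoRNAs). In mESC, Myc and Mycn are known to sustain rapid growth, and several nucleolar genes, Ncl among them, are well-known Myc targets.

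On mouse build GRCm38 (GENCODE vM21 annotation; the files use mm10, which has the same coordinates), Myc lies at chr15:61985391-61990374 on the plus strand, Mycn at chr12:12936093-12941914 on the minus strand and Mycl at chr4:122995652-123002485 on the plus strand. Ncl lies at chr1:86344719-86359400 (minus), Npm1 at chr11:33152287-33163206 (minus), Fbl at chr7:28169710-28179269 (plus), Nop56 at chr2:130274430-130279313 (plus) and Nop58 at chr1:59684971-59719044 (plus). All 8 are protein-coding. The annotation places 3 snoRNA genes inside Ncl, 5 inside Nop56 and 4 inside Nop58, all on the strand of their host. Only Nop56 overlaps a gene of the opposite strand, Idh3b.

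The 3 Myc genes are paralogs, and the 75 in-frame coding bases (25 codons) with the most positions common to all 3 are shown to make that kinship visible. Capitals mark the 47 shared positions. The stretch holds the conserved segment known as Myc box I. It lies in exon 2 of 3 of Myc (chr15:61987648-61987722), exon 2 of 3 of Mycn (chr12:12940193-12940267) and exon 1 of 2 of Mycl (chr4:122996589-122996663), from GENCODE vM21 transcripts.
Myc: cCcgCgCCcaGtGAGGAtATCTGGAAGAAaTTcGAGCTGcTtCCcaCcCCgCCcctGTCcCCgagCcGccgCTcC
Mycn: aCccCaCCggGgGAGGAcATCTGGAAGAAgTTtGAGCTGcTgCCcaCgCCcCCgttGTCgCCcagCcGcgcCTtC
Mycl: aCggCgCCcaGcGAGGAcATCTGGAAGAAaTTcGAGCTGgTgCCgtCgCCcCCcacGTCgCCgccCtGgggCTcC
Within this stretch Myc and Mycn were identical at 56 positions, Myc and Mycl at 57, and Mycn and Mycl at 54. The longest run common to all 3 was 11 bases.

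Promoter windows from 250 bases before to 50 bases after the start were available from RefSeq (GRCm38.p6) for 5 of the 8 genes (Mycn, Mycl, Ncl, Nop56 and Nop58). The windows of Mycn and Ncl, whose levels were higher in libraries 2 and 4, and of Nop56, whose level was not, are shown for comparison. Capitals mark GGGCGG (a GC box) and CCAAT on either strand, which do not overlap here.
Mycn, chr12:12941787-12942086 (minus strand): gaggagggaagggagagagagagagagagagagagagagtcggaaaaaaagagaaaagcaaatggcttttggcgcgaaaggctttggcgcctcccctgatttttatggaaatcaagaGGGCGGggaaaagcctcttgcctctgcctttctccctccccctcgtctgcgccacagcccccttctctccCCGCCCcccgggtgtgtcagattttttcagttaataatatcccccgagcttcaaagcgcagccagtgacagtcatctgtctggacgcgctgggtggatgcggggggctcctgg
Ncl, chr1:86359406-86359705 (minus strand): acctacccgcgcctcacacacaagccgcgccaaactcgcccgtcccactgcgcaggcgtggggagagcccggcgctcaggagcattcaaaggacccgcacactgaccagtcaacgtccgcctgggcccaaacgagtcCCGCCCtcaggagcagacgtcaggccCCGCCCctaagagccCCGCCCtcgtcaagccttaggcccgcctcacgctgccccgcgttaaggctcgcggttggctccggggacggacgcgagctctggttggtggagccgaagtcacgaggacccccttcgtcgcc
Nop56, chr2:130274162-130274461 (plus strand): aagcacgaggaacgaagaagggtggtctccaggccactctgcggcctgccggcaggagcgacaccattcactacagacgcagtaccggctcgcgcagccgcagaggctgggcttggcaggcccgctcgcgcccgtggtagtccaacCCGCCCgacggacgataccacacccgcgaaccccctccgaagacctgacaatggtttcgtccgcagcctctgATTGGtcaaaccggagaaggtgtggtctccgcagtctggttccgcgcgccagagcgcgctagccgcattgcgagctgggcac
All 5 windows held GGGCGG, against 35.7% of 32851 RefSeq windows. CCAAT was present only in that of Nop56, against 37.4%. The E-box CACGTG, which reads the same on both strands, was in none of the 5, against 7.15% of all windows, which says only that these letters are not in these windows.

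The kept cells numbered 8118, 8514, 7893 and 7464 in libraries 1 to 4, with 166839268 to 200180473 unique molecular identifiers (UMIs, counts of captured transcripts) per library and medians of 18378 to 21898 per cell. Among them 211 of 31989 cells had a barcode sequence that occurs in more than 1 library. All 10 naive pluripotency genes checked were detected in every library, at 931 to 1930 CPM in sum (CPM is a gene's UMIs scaled to a library total of 1000000). The targeted gene Srrm2 stood at 387, 533, 238 and 356 CPM in libraries 1 to 4, so that libraries 1 and 2 lay above 3 and 4 with no overlap of their intervals. No library was given a genotype from this. Levels are CPM over kept cells of a library, with exact 95% Poisson intervals in parentheses, which cover counting error only. Counts are of 3′ ends, so levels are compared between libraries and not between genes.

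The Myc genes varied most among the 8. Across libraries 1 to 4 the level of Myc was 10.8 (10.3 to 11.3), 15.7 (15.1 to 16.2), 22.4 (21.7 to 23.1) and 19.1 CPM (18.5 to 19.8). No interval overlapped another, and library 3 exceeded library 1 by 2.06-fold (1.95 to 2.18). Mycn followed another order, with 82.8 (81.5 to 84.2), 159 (157 to 161), 91.7 (90.3 to 93.1) and 149.5 CPM (148 to 151), a span of 1.92-fold (1.88 to 1.96) between the extremes. Mycl, the least counted of the 8 (229 to 1233 UMIs per library), stood at 1.37 (1.20 to 1.56), 6.00 (5.67 to 6.35), 1.95 (1.75 to 2.17) and 7.08 CPM (6.69 to 7.49), a 5.16-fold span (4.48 to 5.97). Mycn and Mycl were thus both higher in libraries 2 and 4, whereas Myc was higher in libraries 3 and 4.

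The nucleolar genes moved less. Ncl measured 2589.8 (2582 to 2598), 3616 (3607 to 3624), 2609 (2602 to 2617) and 3794 CPM (3785 to 3803) in the same order, a 1.46-fold span (1.46 to 1.47). Npm1 had 5016, 5774, 4718 and 5234 CPM (1.22-fold), and Fbl 325, 365, 314 and 354 CPM (1.16-fold). These orders also put libraries 2 and 4 on top. Nop56 was highest in library 1, at 384 CPM against 374, 326 and 364 in libraries 2 to 4 (1.18-fold). Nop58 was at 398, 395, 355 and 399 CPM (1.12-fold), where libraries 1, 2 and 4 lay within counting error of their neighbours in the order and library 3 lay below them.

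**Figure D1:**
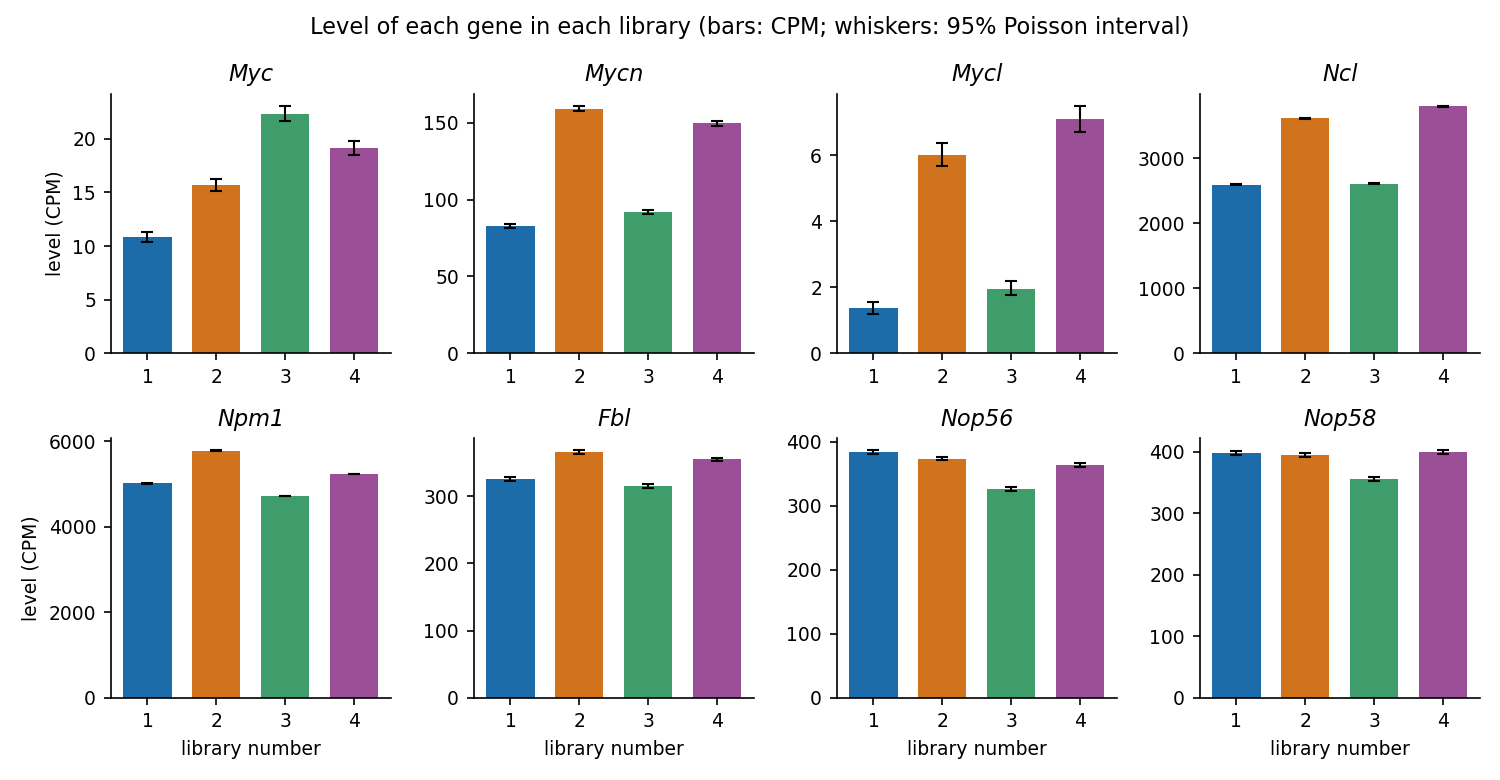
Level of each of the 8 genes in each library, in CPM over kept cells (vertical axes, from 0, each gene on its own scale), with libraries 1 to 4 on the horizontal axes and whiskers for the 95% Poisson interval. Mycn, Mycl and Ncl are high in libraries 2 and 4, Myc is highest in library 3, and Nop56 and Nop58 are nearly level except in library 3.

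Across the 12222 genes with a mean of at least 1 CPM, 45.7% differed at least 1.5-fold between the highest and lowest library, with a median span of 1.46-fold. Of the 8 genes, 3 did (Myc, Mycn and Mycl), a share below that background. The pattern with libraries 2 and 4 above 1 and 3 was also common. It was shown by 5 of the 8 genes (Mycn, Mycl, Ncl, Npm1 and Fbl) and by 39.9% of all genes tested. Libraries 3 and 4 were above 1 and 2 for Myc and for 16.8% of all genes, libraries 1 and 2 were above 3 and 4 for Nop56 and for 11.6%, and libraries 1 and 4 were above 2 and 3 for Nop58 and for 2.02%, counted by level alone, since for Nop58 libraries 1 and 2 lay within counting error. The scaling matters for the smaller spans. DESeq2 size factors and edgeR TMM factors shifted the median log2 level of all genes in library 1 by 0.13 and 0.11, and by less in the others. Under both, Mycn, Mycl and Ncl kept libraries 2 and 4 on top (Ncl with a span of 1.37-fold under either), but Npm1 and Fbl did not, since library 1 then lay above library 4. The order of Nop58 became library 1, 2, 4 and 3 under both, which ends its pattern.

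Genes that work with these factors were read from 5 lists. Of 10 genes of the wider network of Myc and Max, 4 spanned at least 1.5-fold. Max, the obligate partner of the Myc proteins, had 38.2, 47.9, 40.1 and 42.7 CPM. The widest spans of the list belonged to Mlxip (3.20, 5.88, 3.71 and 6.66 CPM) and Mxd4, a repressor that competes for Max (2.04, 3.45, 4.02 and 3.22 CPM), and the narrowest to Mnt (18.2 to 18.8 CPM) and Mga (122 to 150 CPM). Of 14 partners in snoRNA particles, 5 passed. Nolc1, a chaperone of these particles, was at 300.3, 523, 323 and 484 CPM, and Nop10 at 318, 508, 404 and 616 CPM, while Ruvbl2 and Nufip1, which help to assemble box C/D particles, spanned only 1.03-fold and 1.05-fold.

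Of 15 subunits and factors of RNA polymerase I, which transcribes ribosomal DNA, 5 passed, led by the subunit Polr1b (17.7, 38.6, 20.6 and 34.3 CPM) and Taf1d (153, 264, 167 and 321 CPM), while Polr1c and Twistnb spanned 1.13-fold and 1.16-fold. Of 36 ribosome assembly factors, 10 passed. The helicases Ddx21 (164, 369, 198 and 394 CPM) and Ddx18 (137, 256, 164 and 322 CPM) spanned the most, and Brix1 and Nop9 the least, at 1.05-fold and 1.06-fold. Of 18 other growth genes known as Myc targets, 10 passed, led by the cyclin Ccnd2 (6.86, 15.8, 12.9 and 10.7 CPM) and the transferrin receptor Tfrc (29.6, 67.7, 36.3 and 61.0 CPM), and the narrowest were Hspe1 (1.05-fold) and Eif4a1 (1.13-fold). The shares past 1.5-fold were 40.0%, 35.7%, 33.3%, 27.8% and 55.6% of the 5 lists in this order, against the 45.7% of all genes. Libraries 2 and 4 lay above 1 and 3 for 6 of 10, 7 of 14, 10 of 15, 27 of 36 and 11 of 18 genes of the lists, against the 39.9% of all genes. These counts rest on scaling by total UMIs and were not repeated under the other scalings. Genes with small spans can lose this pattern there, as Npm1 and Fbl did.

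How many cells carried a transcript was compared after each cell was thinned to 5000 UMIs. A Myc UMI was then seen in 4.80% of cells of library 1 (exact binomial 95% interval 4.35 to 5.29), 7.49% of library 2 (6.94 to 8.07), 9.59% of library 3 (8.95 to 10.3) and 8.61% of library 4 (7.99 to 9.27). Without thinning the shares were 17.3%, 27.6%, 32.1% and 30.7%. Mycn was seen in 33.5%, 53.7%, 35.0% and 50.2% of thinned cells, and Mycl in 0.825%, 3.03%, 1.11% and 3.85%. Fbl, Nop56 and Nop58 were seen in 78.2% to 85.0%, and Ncl and Npm1 in at least 99.8%. No cell type that lacks these genes was available to measure free RNA, so the low shares of Myc and Mycl include an unknown background.

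Cells were then grouped by state. Clusters were built from variable genes with the 8 genes and the lists above left out, and 5 held over 2% of cells. They largely followed the libraries. Cluster 1 (13436 cells; Slc11a1 and Tbx3 among its leading genes) held most of libraries 1 and 3, cluster 2 (7009 cells; Spic, Lefty2) came almost wholly from library 2 and cluster 4 (3445 cells) from library 4. Cluster 3 (5341 cells; Fgf5, Spon1) came from libraries 2 and 4 and had the highest sum of 8 formative pluripotency genes, at 1575 CPM. Cluster 5 (2611 cells; Gzme, Acta2) came mainly from library 3, with 445 cells of library 1 and 78 of library 4. Levels of the 8 genes were compared between clusters only within a library. Sums of other genes and UMIs per cell of a cluster are pooled over libraries where no library is named.

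Myc was highest in cluster 5 in each of the 3 libraries with at least 50 of its cells. In library 1, cluster 5 had 29.2 CPM of Myc (26.3 to 32.4) where cluster 1 had 9.34 (8.86 to 9.83), a 3.13-fold difference (2.79 to 3.51). In library 3 the levels were 33.0 CPM (31.5 to 34.6) and 17.3 (16.6 to 18.1), or 1.90-fold (1.79 to 2.03). In library 4 the 78 cells of cluster 5 had 40.1 CPM (31.8 to 49.8), compared with 22.2 in cluster 3, 15.5 in cluster 4 and 8.75 in cluster 2. Cluster 3 also exceeded cluster 2, with 21.1 against 14.3 CPM in library 2 (1.48-fold, 1.36 to 1.60) and 22.2 against 8.75 CPM in library 4 (2.54-fold, 1.74 to 3.87). Cluster 2 held only 169 cells of library 4. Cluster 4, with 3419 cells of that library, was at 0.696-fold (0.648 to 0.748) of cluster 3.

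Mycn ran the other way in cluster 5. Its levels there and in cluster 1 were 68.9 (64.4 to 73.6) and 84.0 CPM (82.6 to 85.5) in library 1 and 77.2 and 98.8 CPM in library 3, and it had 34.6 CPM (27.0 to 43.8) in library 4, where clusters 2, 3 and 4 had 162, 143 and 161 CPM. Between clusters 3 and 2 its order was not shared by the libraries, being 1.13-fold (1.10 to 1.16) in library 2 and 0.883-fold (0.807 to 0.967) in library 4, where cluster 2 held only 169 cells. Mycl differed between clusters 5 and 1 in library 3 (2.63 and 1.64 CPM, 1.61-fold, 1.29 to 2.00). Its interval included 1 in library 1 (1.18-fold, 0.704 to 1.86).

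The nucleolar genes were lower in cluster 5 as well, to unequal extents, except that the interval of Fbl included 1 in library 1 (0.979-fold, 0.948 to 1.01). In library 1, Nop56 measured 291 CPM (282 to 301) against 391 (388 to 395) in cluster 1, and in library 3 it measured 269 and 354 CPM. The pairs were 302 and 406 CPM, and 284.5 and 389.6 CPM, for Nop58. Npm1, which forms the granular layer, had 4732 and 5039 CPM, and 4157 and 4986 CPM. Ncl differed by 0.968-fold (0.957 to 0.979) in library 1 and 0.850-fold (0.845 to 0.856) in library 3. In library 4, Ncl had 1840 CPM (1782 to 1900) in cluster 5, against 3498, 3952 and 3686 CPM in clusters 2, 3 and 4, a wider gap for Ncl than the 1.46-fold between whole libraries. The sum of the 5 genes was 0.931-fold and 0.832-fold in these libraries, and in the 78 cells of library 4 it was 5632 CPM (5529 to 5737), where clusters 2, 3 and 4 had 10001, 10333 and 10063 CPM. In cluster 3, Ncl was above cluster 2 in library 2 (4072 and 3514 CPM) and in library 4 (3952 and 3498 CPM, the latter from 169 cells).

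**Figure D2:**
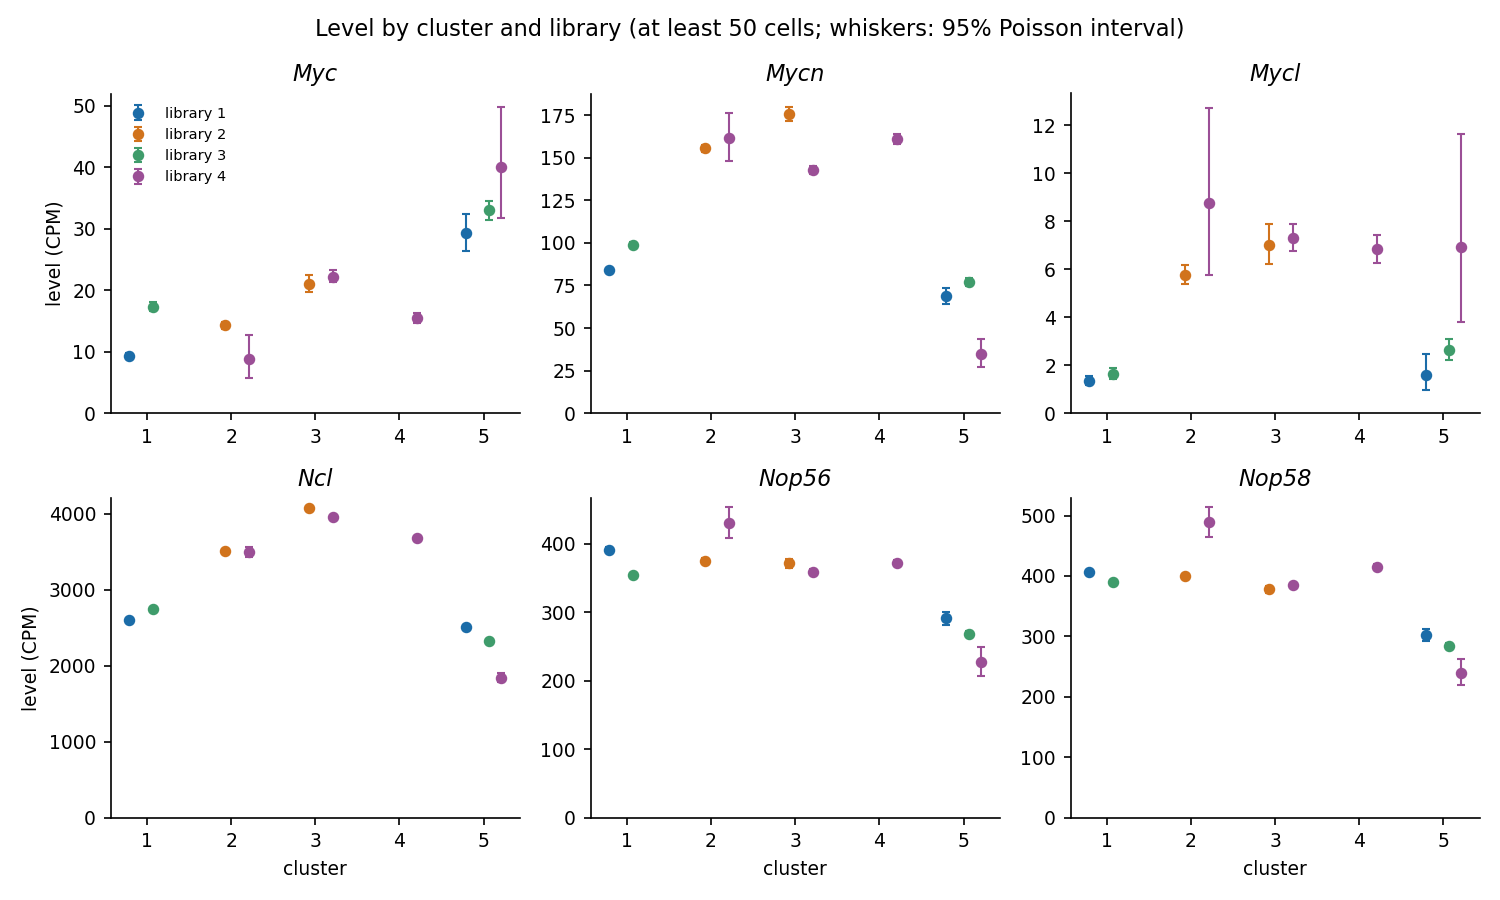
Level in CPM (vertical axes, from 0) of 6 of the genes in clusters 1 to 5 (horizontal axes), a point for each library with at least 50 cells in the cluster, coloured by library, with whiskers for the 95% Poisson interval. Myc is highest and Mycn, Nop56 and Nop58 are lowest in cluster 5, and Ncl is lowest in cluster 5 of library 4, at 1840 CPM.

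Cluster 5 differed from its neighbours in more than these genes. A panel of 6 keratin and contractile genes (Krt8, Krt18, Acta2, Tagln, Cnn1, Acta1) summed to 829.8 CPM there against 7.09 in cluster 1 for library 1, to 2869 against 22.9 for library 3, and to 7895 CPM for library 4. With libraries pooled, cluster 5 had a median of 24152 UMIs per cell against 18309.5 in cluster 1. A panel of 6 fibroblast genes, also with libraries pooled, summed to 32.6 CPM in cluster 5, 1.23 in cluster 1 and 2.97 to 8.31 in clusters 2 to 4, with Lum at 0 in libraries 1, 2 and 4 over all kept cells. In clusters 5 and 1, again pooled, 5 trophectoderm genes summed to 30.3 and 3.01 CPM, 6 primitive endoderm genes to 12.05 and 1.28, the naive genes to 525 and 1949, and 14 S-phase genes to 1854 and 2122. The pooled values mix differences of cluster and of library. Library 3 gave 2066 of the 2611 cells of cluster 5, and library 1 gave 7647 of the 13436 cells of cluster 1. The part of these other differences in the levels of the 8 genes was not tested. The sizes depend on how the cluster is drawn. A finer resolution of 0.4 kept 550 cells in the cluster richest in these genes, and relative to the largest cluster of library 1 it had 7.13-fold Myc, 0.307-fold Mycn and 0.481-fold nucleolar sum, with the directions as before. How many of the 550 cells came from library 1 was not recorded, and no minimum of cells per library was applied. These folds are given without intervals and may rest on few cells.

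Within each library, the 25% of cells with the lowest share of 10 naive pluripotency genes were compared with the 25% with the highest. Of 9132 genes with a mean of at least 5 CPM, 9.75% were higher in the low-naive cells in all 4 libraries and 4.62% lower, by a log2 ratio of at least 0.32 in each, the threshold used for all splits of this kind. Of the 8 genes, 7 entered this comparison (Mycl was below 5 CPM) and only Myc passed. Low-naive cells had 16.0 CPM and high-naive cells 7.84 in library 1, a log2 ratio of 1.03 (0.83 to 1.23). In library 2 the levels were 19.9 and 14.1 CPM (0.50, 0.35 to 0.64), in library 3 33.2 and 14.99 CPM (1.15, 1.01 to 1.29) and in library 4 20.2 and 15.2 CPM (0.42, 0.26 to 0.57). Myc was therefore higher in low-naive cells of every library, by more in libraries 1 and 3. The 8 formative genes moved with the split in each, at 328 and 138, 1536 and 405, 626 and 218, and 1685 and 548 CPM in low- and high-naive cells of libraries 1 to 4, and their part in the ratios of Myc was not tested.

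Libraries 1 and 3 held most cells of cluster 5, and the keratin and contractile genes moved with the split, at 248 and 7.55 CPM in low- and high-naive cells of library 1, 163 and 10.3 in library 2, 2955 and 25.7 in library 3, and 440.1 and 25.6 in library 4. Without the cells of cluster 5 the log2 ratios of Myc were 0.39, 0.48, 0.55 and 0.38 in libraries 1 to 4, all past the threshold, as for 1.55% of the genes tested. The ratios of libraries 1 and 3 were thus smaller than with cluster 5, and the direction stayed. Their intervals were 0.17 to 0.62, 0.34 to 0.63, 0.36 to 0.74 and 0.23 to 0.54 in libraries 1 to 4. These overlap, so no library was set above another, and in libraries 1 and 4 they reach below the threshold.

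The other genes that entered the naive comparison showed smaller ratios than Myc. For Nop58 the log2 ratios were -0.32, -0.08, -0.54 and -0.17 in libraries 1 to 4, and for Nop56 -0.32, -0.08, -0.44 and -0.05. Fbl was at -0.01 (-0.04 to 0.03), -0.06, -0.24 and -0.04. These 3 were below 0 in each library, as were 2098 of all 9132 genes, but not past the threshold in all. Mycn was at -0.08, 0.13, -0.37 and -0.22 and Ncl at -0.07, 0.14, -0.24 and 0.14, with no shared direction. In library 3 the ratios without cluster 5 were smaller, at -0.19 for Nop58, -0.13 for Nop56, -0.01 for Fbl, 0.04 for Mycn and -0.04 for Ncl. Mycl, though too low for the count, had 0.13 (-0.40 to 0.66), 0.58 (0.34 to 0.82), 0.86 (0.42 to 1.32) and 0.39 (0.15 to 0.62), and without cluster 5 its ratio in library 3 was -0.14 (-0.74 to 0.46). Among the genes of the lists, Odc1, the enzyme that starts polyamine synthesis (1.04, 0.88, 1.19 and 0.76), Ldha (0.76, 0.92, 0.69 and 0.88), Ccnd2 and Naf1 passed in the direction of Myc. They were 3 of 18 growth genes and 1 of 14 snoRNA particle partners, against 9.75% of all genes. Mga, a repressor that pairs with Max, passed in the other direction (-0.33, -0.39, -0.70 and -0.49), as 1 of 7 tested in its list, against 4.62%. Of the 18 growth genes, 9 were above 0 in all libraries and 2 below, as were 3500 and 2098 of all 9132 genes. The list genes were not read without cluster 5. None of 36 ribosome assembly factors and none of 15 polymerase I genes passed.

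The cell cycle was read from the share of 14 S-phase genes and of 14 G2/M genes, comparing the 25% of cells with the highest and the lowest share. For the S-phase share, 4.19% of genes passed in either direction in all libraries, and of the 7 genes tested 0 passed. Ncl was higher in S-high cells in each, with log2 ratios of 0.22, 0.31, 0.47 and 0.35 and levels of 2796 and 2402, 3998 and 3221, 2959 and 2129.6, and 4274 and 3349 CPM. Nop58 (0.10, 0.17, 0.30 and 0.25), Npm1 (0.10, 0.08, 0.27 and 0.13), Mycn (0.24, 0.12, 0.64 and 0.29) and Myc (0.66, 0.88, 0.14 and 0.38) were also above 0 in each library, whereas Nop56 was at -0.07, -0.18, 0.17 and -0.03. In library 3 the ratios without cluster 5 were 0.21 for Ncl, 0.06 for Npm1, 0.08 for Nop58, 0.31 for Mycn and -0.11 for Nop56, which was then below 0 in each library. Myc without cluster 5 was at 0.78, 0.90, 0.64 and 0.44 and passed, as did 2.29% of genes. With cluster 5 kept and cells thinned to 5000 UMIs, Myc was at 0.44, 0.50, -0.01 (-0.28 to 0.27) and 0.30. Its direction in library 3 with that cluster was thus not settled. Mycn in library 1 was then at 0.08 (-0.06 to 0.22). Thinning was not combined with leaving out cluster 5.

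Of 36 ribosome assembly factors, 33 were above 0 in all 4 libraries, as were 3056 of all 9132 genes, and 4 passed as higher (Nop2, Ddx21, Tsr1 and Noc3l), as did 222 of all genes, with a median log2 ratio of 0.20 against 0.04 over all genes tested. Ddx21 had 0.49, 0.47, 0.60 and 0.51. The keratin and contractile genes ran against the S-phase share, most in library 3 (127 CPM in S-high and 2793 in S-low cells), and their part in the ratios of the assembly factors was not tested.

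For the G2/M share, 5.50% of genes passed in either direction, and again 0 of the 7 genes passed. Nop56 was the nearest, at 0.13, 0.42, 0.31 and 0.39 in libraries 1 to 4 (398 and 364, 428 and 319, 355 and 286, and 415.5 and 317 CPM), while its partner Nop58 in the same particle was at -0.07, -0.02, 0.07 and 0.02. Ncl was also above 0 in each library, at 0.08, 0.11, 0.33 (0.11 without cluster 5) and 0.20. Myc was below 0 in each, at -0.38, -0.45, -0.13 (-0.27 to 0.01) and -0.26. Without cluster 5 the library 3 ratios were 0.12 for Nop56, -0.12 (-0.16 to -0.08) for Nop58, -0.15 for Mycn (0.18 with that cluster) and -0.07 (-0.26 to 0.13) for Myc. G2/M-high cells had more UMIs, with medians of 22187 to 26344 against 15299 to 18725.

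The split by total UMIs per cell bears on both. There 2.01% of genes passed in either direction, and 0 of the 7 genes did. Myc was at 0.47, 0.04, 0.62 and 0.07, Ncl at 0.11, 0.19, 0.07 and 0.20, and Nop56 at -0.15, 0.15, -0.19 and 0.06. Without cluster 5, whose cells had more UMIs, Myc was at 0.16, 0.03, 0.16 and 0.06, and each interval included 0. The sum of the nucleolar genes, most of it Ncl and Npm1, stayed between -0.02 and 0.06, so their summed share was nearly the same in UMI-poor and UMI-rich cells. This did not hold for each gene. While Ncl was above 0 in each library, Nop58 was at -0.15, -0.02 (-0.05 to 0.01), -0.26 and -0.03.

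**Figure D3:**
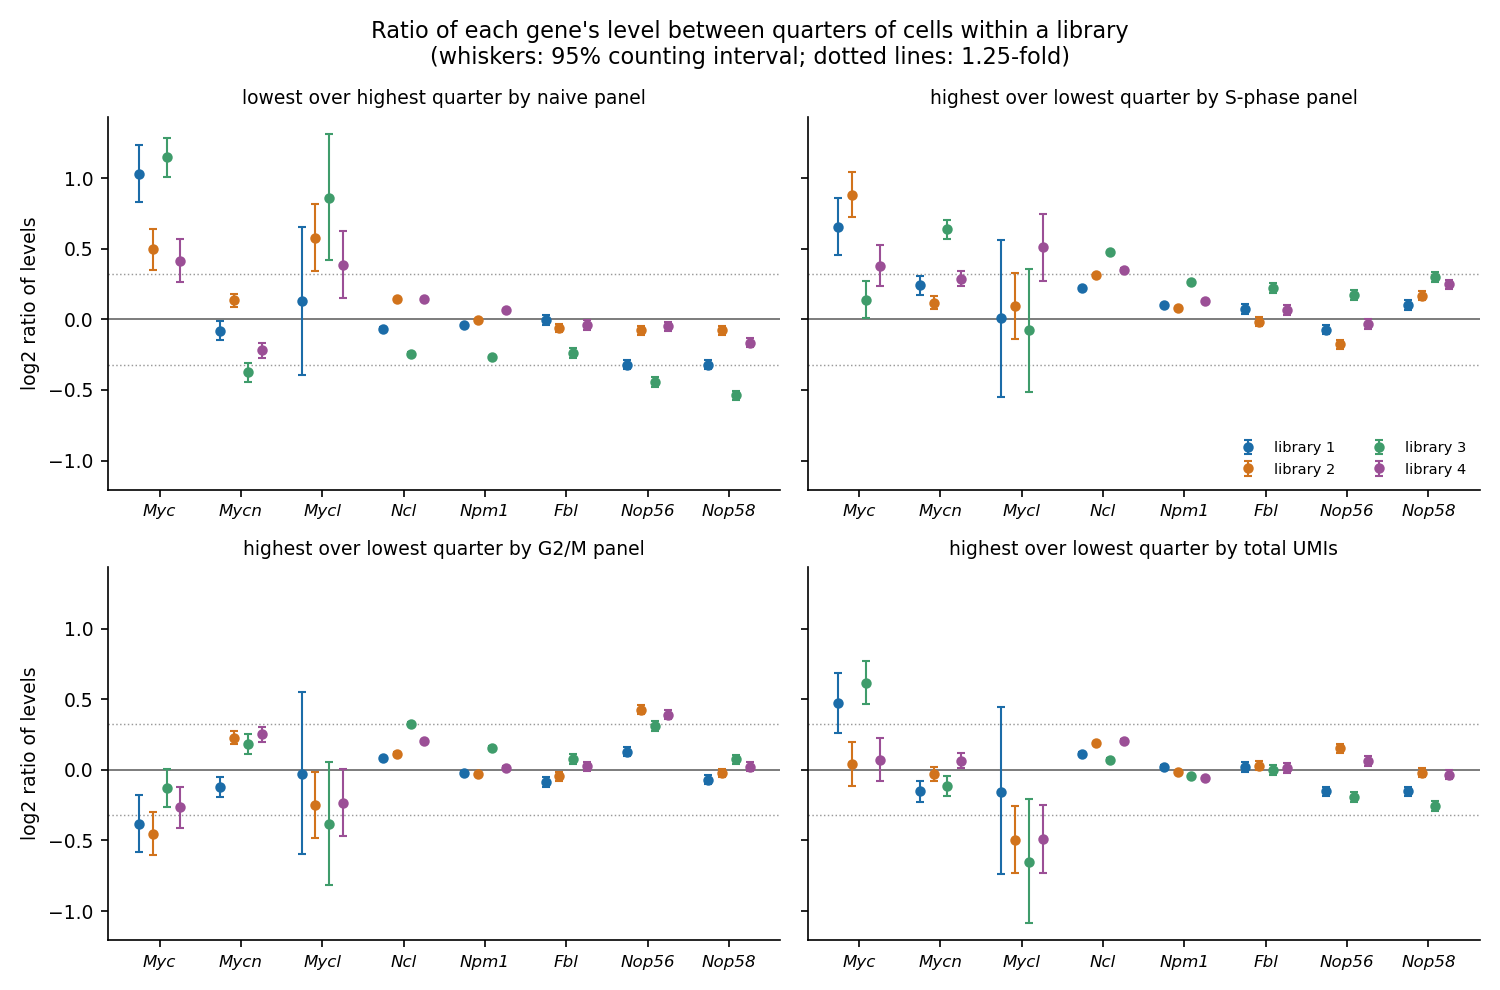
Log2 ratio of each gene's level (vertical axes) between the 25% of cells at either end of the naive, S-phase, G2/M and total UMI ranking within a library, with points coloured by library, whiskers for the 95% counting interval and dotted lines at the threshold. Myc is above the upper line in all 4 libraries only for the naive split, Ncl is above 0 throughout the S-phase split, and Nop56 and Ncl are above 0 throughout the G2/M split.

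The per-cell relation of the genes was read from cells thinned to 5000 UMIs, within each library, as Pearson's r over cells. Cells share a library and are not replicates, so r is given as a description. The pair with the highest r was Ncl with Npm1, the most counted genes of the 8, at 0.180, 0.154, 0.324 and 0.207 in libraries 1 to 4. Ncl with Nop58 had 0.104, 0.090, 0.144 and 0.131, and Ncl with Nop56 0.087, 0.060, 0.151 and 0.099. Nop56 and Nop58, which sit in the same particle, had 0.068, 0.026, 0.098 and 0.052. Fbl had -0.013, -0.017, 0.054 and 0.020 with Ncl and 0.025, 0.015, 0.110 and 0.042 with Npm1. Counting noise lowers r most for genes with few UMIs, so the order of pairs was also read after dividing the covariance by the square root of the product of the variances beyond Poisson. Corrected in this way, r was 0.447, 0.354, 0.612 and 0.423 for Ncl with Npm1, 0.408, 0.420, 0.526 and 0.507 for Ncl with Nop58, and 0.453, 0.246, 0.688 and 0.418 for Nop56 with Nop58. These pairs changed places from library to library, so none was set above the others.

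Library 3 gave the highest r of most pairs. Without cluster 5, Ncl with Npm1 was at 0.172, 0.144, 0.162 and 0.182, so that library 3 no longer stood out. In library 3 the same setting gave 0.074 for Ncl with Nop58, 0.087 for Ncl with Nop56, 0.059 for Nop56 with Nop58 and 0.030 for Npm1 with Fbl. In library 3 the sum of the nucleolar genes had an r of -0.394 with the keratin and contractile genes, and of -0.111, -0.108 and -0.203 in libraries 1, 2 and 4.

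Of the Myc genes, Mycn had r of 0.071, 0.061, 0.104 and 0.081 with Ncl and of 0.075, 0.053, 0.124 and 0.082 with the nucleolar sum. Without cluster 5 these values in library 3 were 0.068 and 0.074. Corrected for counting noise, r of Mycn with Ncl was 0.377, 0.243, 0.403 and 0.283 in libraries 1 to 4. Cells with a Mycn UMI had Ncl levels 1.06-fold, 1.03-fold, 1.09-fold and 1.06-fold those of cells without it in libraries 1 to 4. In library 1, Ncl was at 2520.0 CPM (2501 to 2539) in cells with no Mycn UMI, 2641 (2610 to 2672) with 1, 2703 (2639 to 2768) with 2 and 2808 (2659 to 2964) with 3. Library 4 went from 3642 CPM (3615 to 3670) with none to 4085 (3983 to 4189) with 3, and had 3975 (3792 to 4163) in 90 cells with 4 or more. In library 2, Ncl was at 3741 CPM (3653 to 3831) with 3 and 3939 (3790 to 4093) in 134 cells with 4 or more. For Npm1 the folds between cells with and without Mycn were 1.02, 1.01, 1.06 and 1.02. With the S-phase genes, r was 0.115, 0.171, 0.237 and 0.195 for Ncl and 0.019, 0.040, 0.073 and 0.069 for Mycn. With the formative genes it was 0.048, 0.231, 0.098 and 0.232 for Ncl and 0.033, 0.107, 0.035 and 0.053 for Mycn. The part of these in the relation of Mycn and Ncl was not tested.

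Myc had no relation of a shared sign with the nucleolar sum. Its r with the nucleolar sum was -0.011, 0.034, -0.017 and 0.021, and cells with a Myc UMI had 0.989-fold (0.974 to 1.00), 1.03-fold (1.01 to 1.04), 0.984-fold (0.973 to 0.996) and 1.01-fold (0.998 to 1.02) the nucleolar sum of cells without. Without cluster 5, r was -0.007, 0.037, 0.002 and 0.027. Corrected for counting noise with all kept cells, r of Myc with the sum was -0.060, 0.181, -0.070 and 0.094. The corrected r of Myc with Ncl was -0.001, 0.211, 0.029 and 0.199. For Ncl alone the folds were 0.998 (0.970 to 1.03), 1.05 (1.03 to 1.07), 1.00 (0.984 to 1.03) and 1.05 (1.03 to 1.07), above 1 beyond counting error in libraries 2 and 4. Myc and Mycn were neither found together nor apart beyond counting error. Cells with both made up 1.503%, 4.05%, 3.22% and 4.38% of the libraries, or 0.933 (0.776 to 1.11), 1.01 (0.906 to 1.12), 0.958 (0.845 to 1.08) and 1.01 (0.909 to 1.13) times the product of the shares with either. For Myc and Mycl this ratio was 0.932 (0.192 to 2.72), 1.66 (1.13 to 2.33), 1.18 (0.568 to 2.18) and 0.930 (0.590 to 1.39), above 1 beyond counting error in library 2, where 32 cells held both. Thinned cells held 0.051 to 0.106 Myc UMIs on average. The r of Myc with the naive genes was -0.063, -0.045, -0.071 and -0.042, and with the formative genes 0.086, 0.069, 0.057 and 0.030.

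**Figure D4:**
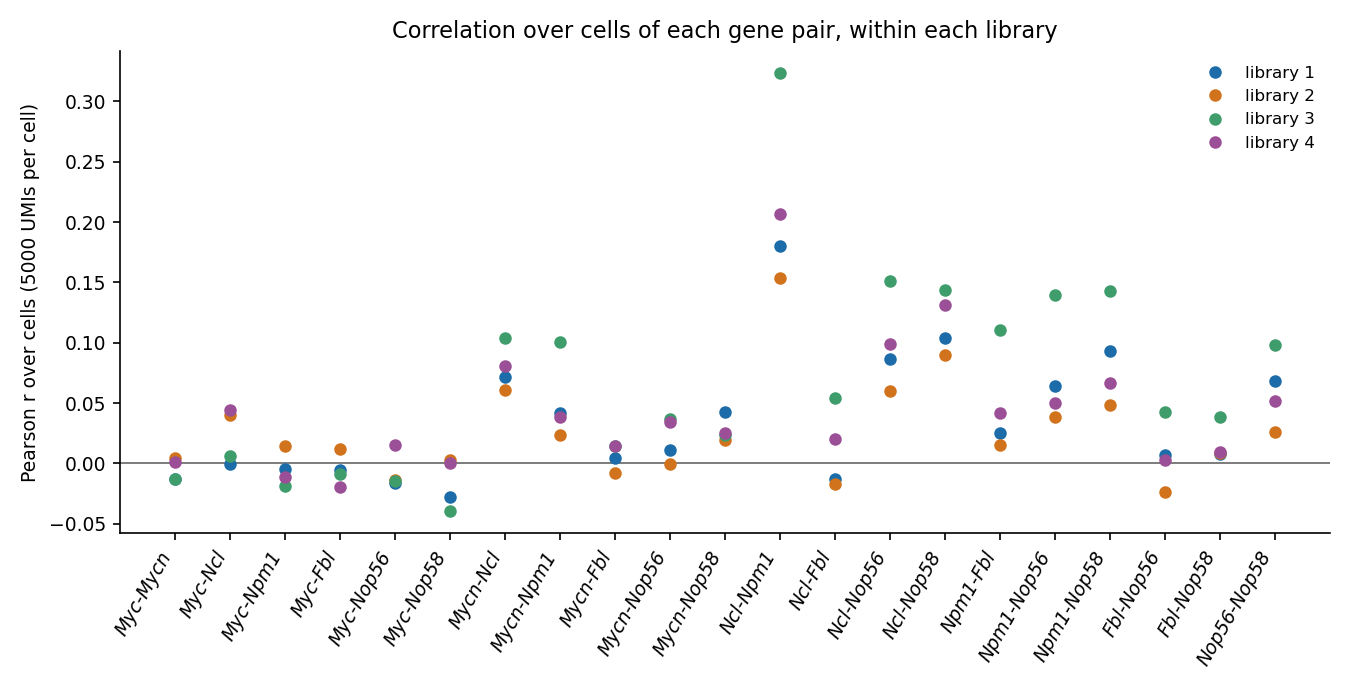
Pearson's r over cells at 5000 UMIs per cell (vertical axis) for each pair of 7 of the genes (horizontal axis; Mycl was too sparse), a point for each library. Ncl with Npm1 is the highest pair in each library, pairs with Myc lie near 0, pairs with Fbl do so except for Npm1 in library 3 (0.110, and 0.030 without cluster 5), and library 3 gives the highest value of most nucleolar pairs.

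**Figure D5:**
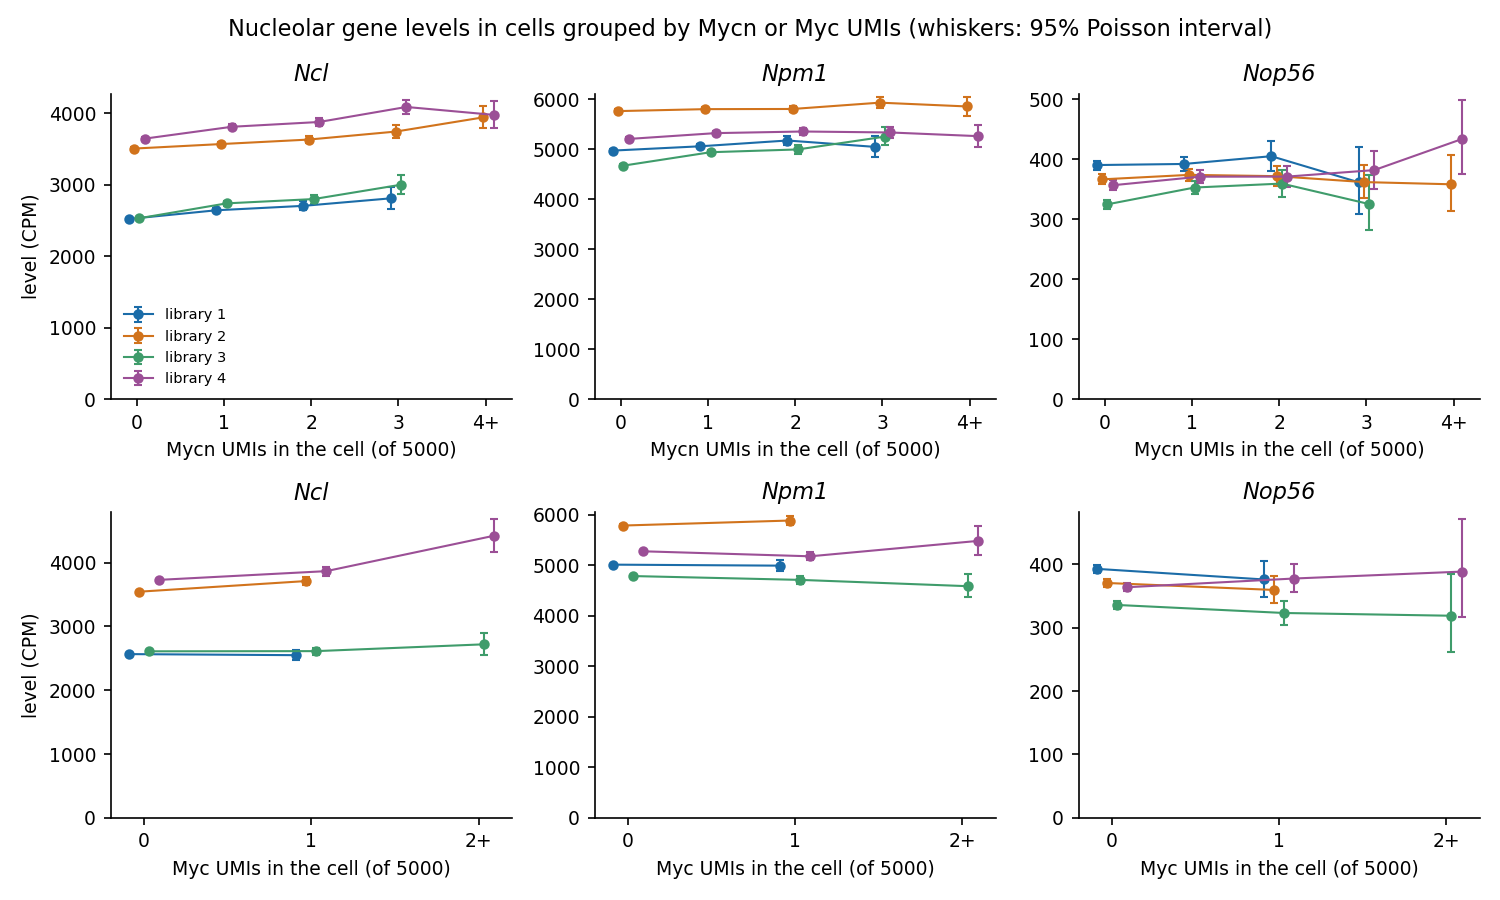
Levels of Ncl, Npm1 and Nop56 in CPM (vertical axes, from 0) in cells grouped by their number of Mycn UMIs (top) or Myc UMIs (bottom) of 5000, coloured by library, with whiskers for the 95% Poisson interval and groups of at least 50 cells. Ncl is higher in cells with more Mycn UMIs up to 3 in each library, Npm1 differs most in library 3, and Nop56 follows no shared order.

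The counts of Ncl had a variance 1.86 to 2.56 times the mean and those of Npm1 1.54 to 2.07 times, but this ratio grows with the mean. Relative to the squared mean, the variance beyond Poisson was 0.901 to 1.56 for Myc and 0.164 to 0.306 for Mycn. Among the nucleolar genes it was 0.082 to 0.103 for Nop56, 0.065 to 0.091 for Ncl, 0.047 to 0.087 for Nop58, 0.019 to 0.045 for Npm1 and 0.013 to 0.034 for Fbl. By this measure Nop56 exceeded Ncl in each library, and Myc exceeded Mycn and the nucleolar genes. No interval was computed for it, and in library 4 Nop56 and Ncl were close (0.089 and 0.083), so their order there was not settled.

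The genes whose counts over cells were most like each were ranked by their lowest r in any library, among genes with at least 0.25 UMIs per thinned cell. For the nucleolar sum they were Hnrnpu (0.206 to 0.283), Nasp (0.177 to 0.304), Hnrnpa3 (0.176 to 0.294), Eif3a (0.168 to 0.209) and Serbp1 (0.164 to 0.311), and 1.20% of 2831 genes reached 0.1 in all libraries. For Mycn, 0 of 2835 genes (0.00%) reached it, and the ranking was led by Ncl, then Nasp, Jarid2, Tet1 and Dnmt3a, with lowest r of 0.061 to 0.042. For Myc, 0 of 2836 genes (0.00%) did, and Actg1, Fabp5, Zdbf2, Pou3f1 and Dstn led with lowest r of 0.051 to 0.037. Values this small in sparse counts set no gene apart.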

How the data were processed

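Single-cell 3′ mRNA of mESC was counted by the authors as UMIs per gene and barcode with Cell Ranger 6.1.2 (per the labels' processing notes) on mm10, and the 4 libraries were joined with its aggregation step, which equalises sequencing depth. The deposited counts are raw whole numbers for 41142 barcodes. The study's filter was applied per library: UMIs and genes at or above the mean minus 1 SD and at most 10% mitochondrial UMIs, which kept 31989 cells, slightly more than the study states for its own filter. Counts were summed per library, cluster or group of cells. At the library totals, 3 counts equal 0.0150 to 0.0180 CPM. Intervals (95%, exact Poisson and binomial, computed with scipy 1.17.1) cover counting error only.

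Clusters came from 2000 variable genes without the 8 genes and the gene lists, 20 components, 20 neighbours and leidenalg 0.10.2 at resolution 0.2, with no batch correction. No doublet caller was run. Cells over 2 times the median UMIs were left out in an alternative. Scripts were tested on simulated counts. An edgeR comparison of the genotypes had been laid out but was not made, since no source used here ties library numbers to samples, so no p-value is given. DESeq2 1.42.0 size factors and edgeR 4.0.16 TMM served as alternative scalings. The 8 genes and all lists were chosen with earlier results of these data known. In each list the 2 genes with the widest and the 2 with the narrowest span were named, and the 5 genes most like Myc, Mycn and the nucleolar sum. Max and the list genes named for the splits were chosen after their values were seen. Cell Ranger counts reads on the sense strand of a gene.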

Additional observations from a re-analysis of the deposited data

How the results depend on the processing

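No paired analysis was possible because the library numbers carry no genotype and no replicate number. For the same reason the edgeR comparison of the genotypes and its alternatives (replicate block, DESeq2, each replicate left out) were not run. Of 353 recomputed values, 249 stayed within the tolerance (the 95% counting interval of a fold, the SD over libraries of a median, or 1.5-fold of a count), 104 moved and 0 reversed a called direction. A reversal could be counted only where the tolerance of the main value left out no change, and never for spans between libraries or counts of genes. Splits and r entered as medians over libraries. Single libraries did change sign, for example Mycn in the G2/M split of library 3 (0.18, and -0.15 without cluster 5). The cause of a move was not tested, except where the setting itself removes cells, genes or libraries.

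Between libraries, size factors gave spans of 1.89-fold for Myc, 1.72 for Mycn, 4.45 for Mycl and 1.23 for the nucleolar sum, and TMM gave 1.92, 1.73 and 1.23 for Myc, Mycn and the nucleolar sum. The nucleolar sum spanned 1.26 with all barcodes, 1.251 as a mean over cells and 1.245 without cells over 2 times the median UMIs. Leaving out each library gave 1.43 to 2.06 for Myc (1.43 without library 1), 1.74 to 1.92 for Mycn, 3.62 to 5.16 for Mycl and 1.21 to 1.26 for the nucleolar sum. Genes at least 1.5-fold apart numbered 3363 at a mean of at least 5 CPM and 13004 with no filter, against 5581.

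At resolution 0.4 the cluster richest in keratin and contractile genes held 550 cells and, over the largest cluster of the library, gave 7.13-fold Myc, 0.307-fold Mycn and 0.481-fold nucleolar sum in library 1 and 0.314-fold Mycn and 0.528-fold nucleolar sum in library 3. Components centred within library gave 6.00, 0.299 and 0.533 in library 1 and 2.04, 0.320 and 0.527 in library 3. For both settings the cells per library were not recorded and no minimum per library was applied, so these folds may rest on few cells. At resolution 0.1 (2599 cells) no value moved beyond its interval.

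In the naive split, leaving out each library gave median log2 ratios of 0.50 to 1.03 for Myc, -0.22 to -0.08 for Mycn and -0.07 to 0.04 for the nucleolar sum. Genes higher in low-naive cells numbered 142 without cluster 5 and 329 at a mean of at least 20 CPM, against 890, and genes lower 270 with 3 parts in place of 4, 275 after thinning, 95 without cluster 5 and 230 at a mean of at least 20 CPM, against 422. After thinning, the S-phase split called 74 higher and 105 lower genes (222 and 161) and the G2/M split 257 higher (388), while 71 were lower in G2/M-high cells without cluster 5 (114). The nucleolar sum in the UMI split was 0.078 without cells over 2 times the median UMIs, against 0.04. Median r of Ncl with Npm1 was 0.284 at 10000 UMIs per cell, against 0.193. Leaving out cluster 5 was chosen after seeing the data.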

Other observations

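Clusters 6 and 7 each held under 0.3% of cells and entered no comparison, and their values pool the libraries. Cluster 6 (95 cells, led by Aqp3 and Bhlhe41, median 11603 UMIs per cell) had 3.5 CPM of Myc, 55.0 of Mycn, 1807 of Ncl and 5616 of Npm1. Cluster 7 (52 cells, whose leading genes include Zscan4d, a gene of the early cleavage stages) had 9.8 CPM of Myc, 96.05 of Mycn and 2694 of Ncl.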
